A study of Mus musculus with 36 samples.

Results

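The genes described here are 9 regulators of muscle protein breakdown, namely the ubiquitin ligase genes *Fbxo32*, *Trim63*, *Fbxo30*, *Fbxo40*, *Fbxo21* and *Trim32* and the transcription factor genes *Foxo1*, *Foxo3* and *Foxo4*. They were taken by name from the 55416 genes of the count table. All 9 passed the filter on low counts (1 or more RPM, reads scaled to a common library size, in 12 or more of the 36 libraries), as did 13995 genes in all, and every test below was fitted and adjusted over those 13995 genes.

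The libraries came from C2C12 myotubes, the multinucleate cells that this mouse myoblast line forms once serum is lowered. On day 3 of differentiation the cells were transfected with an antisense locked nucleic acid (LNA), either a negative control (control myotubes) or one against the long non-coding RNA *Tug1* (*Tug1* KD myotubes), and 24 h later, on day 4, they entered the experiment. Wells in the EPS groups contracted under electrical pulse stimulation for 3 h and were lysed either at its end, called EPS 0h, or when 3 h of rest had followed, called EPS 3h. Wells in the Rest groups held unconnected electrodes for the same time and served both time points, so that both comparisons with Rest share their Rest libraries. No Rest group is labelled for the 3 h after stimulation. In comparisons of EPS 3h with Rest or EPS 0h, stimulation and time in culture therefore cannot be told apart. Each of the 6 groups had 6 libraries, 1 culture well each, from a single cell line carrying no engineered allele. The study's methods describe triplicate wells from 2 independent experiments, while the labels number the replicates 1 to 6 without naming the experiment, so the p-values measure the spread among these wells, part of which may be technical.

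Muscle protein is degraded to a large extent by the ubiquitin-proteasome system, in which E3 ligases choose the proteins that are tagged with ubiquitin. FOXO transcription factors bind forkhead sites in DNA and switch on several of these ligases during fasting, denervation and disuse, and insulin and IGF signalling through AKT keeps FOXO proteins out of the nucleus. *Fbxo32* (atrogin-1) and *Trim63* (MuRF1) are the classical markers of muscle atrophy. *Fbxo32*, *Fbxo30*, *Fbxo40* and *Fbxo21* encode F-box proteins, which bring substrates to SCF ligase complexes, whereas *Trim63* and *Trim32* encode single-chain ligases with a RING domain. The data are mRNA counts, and neither the ligase proteins, their activity nor the location of the FOXO proteins was analysed here.

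The proximal promoters of 2 ligase genes are shown because that of *Trim63* was the 1 member window with a forkhead sequence and *Fbxo40* is the member whose level differed most between *Tug1* KD and control myotubes. Both are the 250 bases before the transcription start in the RefSeq table (build GRCm38.p6), 5′ to 3′ on the strand of the gene. Capitals mark the forkhead core GTAAACA, the glucocorticoid receptor arm TGTTCT and the myogenic E-box CAGCTG, each sought on both strands. The *Trim63* window is chr4:134314870-134315119 (plus strand) and the *Fbxo40* window is chr16:36990468-36990717 (minus strand).
Trim63: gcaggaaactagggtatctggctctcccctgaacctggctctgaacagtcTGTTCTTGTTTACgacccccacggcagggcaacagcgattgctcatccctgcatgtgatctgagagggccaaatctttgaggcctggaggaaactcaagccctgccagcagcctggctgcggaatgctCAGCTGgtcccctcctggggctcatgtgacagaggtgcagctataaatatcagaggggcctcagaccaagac
Fbxo40: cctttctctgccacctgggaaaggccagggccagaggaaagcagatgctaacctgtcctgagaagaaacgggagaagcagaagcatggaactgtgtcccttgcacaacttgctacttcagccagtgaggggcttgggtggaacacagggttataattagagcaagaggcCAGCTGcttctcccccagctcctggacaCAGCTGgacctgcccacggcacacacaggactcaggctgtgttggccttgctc

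In *Trim63* the glucocorticoid receptor arm lay 200 to 195 bases before the start and was followed without a gap by TGTTTAC, the forkhead core read on the other strand, at 194 to 188 bases. An E-box, the 6-base sequence that MyoD and myogenin can bind, lay 72 to 67 bases before the start. In *Fbxo40* E-boxes lay 81 to 76 and 53 to 48 bases before the start, and a second listed start of *Fbxo40* (chr16:36979137-36979386) held 1 E-box and 1 glucocorticoid receptor arm on the opposite strand. *Trim32* held 1 E-box, and the windows of *Foxo1*, *Foxo3*, *Fbxo21* and *Fbxo30* held none of the 3 sequences. Windows were found for 7 of the 9 members (8 windows). *Fbxo32* and *Foxo4* had no window in that table, so their promoters were not searched for any of these sequences. Among all 32851 windows of that length, 3.17% held the forkhead core, 16.1% the glucocorticoid receptor arm and 13% the E-box. These are matches of letters, not binding sites.

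The depth of the libraries, as the sum of their gene counts, lay between 17005079 and 24181167 (median 19439667.5), and the members held between 188 (*Fbxo21*) and 4441 reads (*Fbxo30*) in each library. Markers of the labelled cell type were present: 11 of 12 myotube genes passed the filter, and the summed level of the list lay between 17814 and 26435 CPM (counts scaled to a common library size, here with TMM factors) in the 36 libraries; the exception was *Tnnc2*. The summed level of 8 myoblast and proliferation markers, all detected, moved with the groups. Its medians were 323 CPM in Rest control, 242 CPM in Rest *Tug1* KD, 269 and 234 CPM in control and *Tug1* KD at EPS 0h, and 199 and 169 CPM at EPS 3h. The single markers did not move together. Against Rest at EPS 0h, 2 were higher and 3 lower in control, and 3 higher and 3 lower in *Tug1* KD myotubes (FDR under 0.05). At EPS 3h 1 was higher and 4 lower with either LNA. Between *Tug1* KD and control 1 of the 8 passed, lower, at Rest, at EPS 0h and at EPS 3h. Of 8 non-muscle markers 5 passed the filter, and the summed level of the list, between 13.0 and 54.0 CPM, moved with the groups as well. Its medians were 32.6 CPM in Rest control and 19.6 CPM in Rest *Tug1* KD (without overlap), 26.7 and 17.0 CPM at EPS 0h, and 39.7 and 36.3 CPM at EPS 3h. Of the 5 that passed, 3 were lower with *Tug1* KD at Rest, and with either LNA 4 had risen by EPS 3h. The part of these marker shifts in the results was not tested, and in bulk lysates fewer cells of a type and less RNA per cell cannot be told apart. Libraries numbered 1 to 3 (the first replicate set) and libraries numbered 4 to 6 (the second set) stood apart on the first principal component of the group-centred values. The exception was replicate 3 of EPS 3h control (12.8, on the side of the second set, whose values there were 15.4 to 18.1), and replicate 3 of EPS 3h *Tug1* KD lay at -0.05. Results at EPS 3h were therefore also computed without these 2 libraries.

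*Tug1* itself was lower in *Tug1* KD myotubes. At Rest its level was 38.5 to 58.2 CPM (median 47.7) in control and 23.9 to 33.2 CPM (median 25.4) in *Tug1* KD libraries, without overlap, a log2FC of -0.83 ± 0.17 (SE, n = 6 per group; FDR = 0.000915, edgeR quasi-likelihood test). The difference was -0.57 at EPS 0h (FDR = 0.0178) and -0.51 at EPS 3h (FDR = 0.0414), and there the ranges of the groups overlapped. *Tug1* also rose against Rest with either LNA. In control myotubes the log2FC was 0.48 at EPS 0h (FDR = 0.0223) and 0.75 at EPS 3h (FDR = 0.00033). In *Tug1* KD myotubes it was 0.74 (FDR = 0.000622) and 1.06 (FDR = 2.68e-06). The median in *Tug1* KD libraries at EPS 3h, 51.4 CPM, was thus not below that of Rest control, a difference that was not tested.

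Per length of exon, the members were expressed within a narrow span at Rest. In Rest control myotubes *Trim63* (18.7 ± 2.70 RPKM, SD, n = 6), *Fbxo30* (17.8 ± 3.21 RPKM) and *Foxo4* (15.3 ± 1.05 RPKM) came first. *Fbxo32* (9.16 ± 1.30 RPKM), *Foxo3* (8.43 ± 0.78 RPKM) and *Fbxo40* (8.13 ± 1.56 RPKM) followed, and *Trim32* (5.61 ± 0.91 RPKM), *Fbxo21* (5.32 ± 0.54 RPKM) and *Foxo1* (4.53 ± 0.65 RPKM) came last. Within each of these 3 groups neighbouring genes differed by less than their summed SDs, so their order is not firm. After stimulation the order was different. At EPS 3h in control myotubes *Fbxo30* stood first at 23.9 ± 4.06 RPKM, ahead of *Foxo4* (12.2 ± 2.56 RPKM) and *Trim63* (11.98 ± 1.73 RPKM). *Foxo1* had moved up to 8.42 ± 2.07 RPKM beside *Foxo3* at 8.37 ± 0.76 RPKM, and *Fbxo32* (5.36 ± 1.04 RPKM), *Fbxo40* (4.86 ± 1.35 RPKM) and *Fbxo21* (2.98 ± 0.54 RPKM) closed the list.

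**Figure D1:**
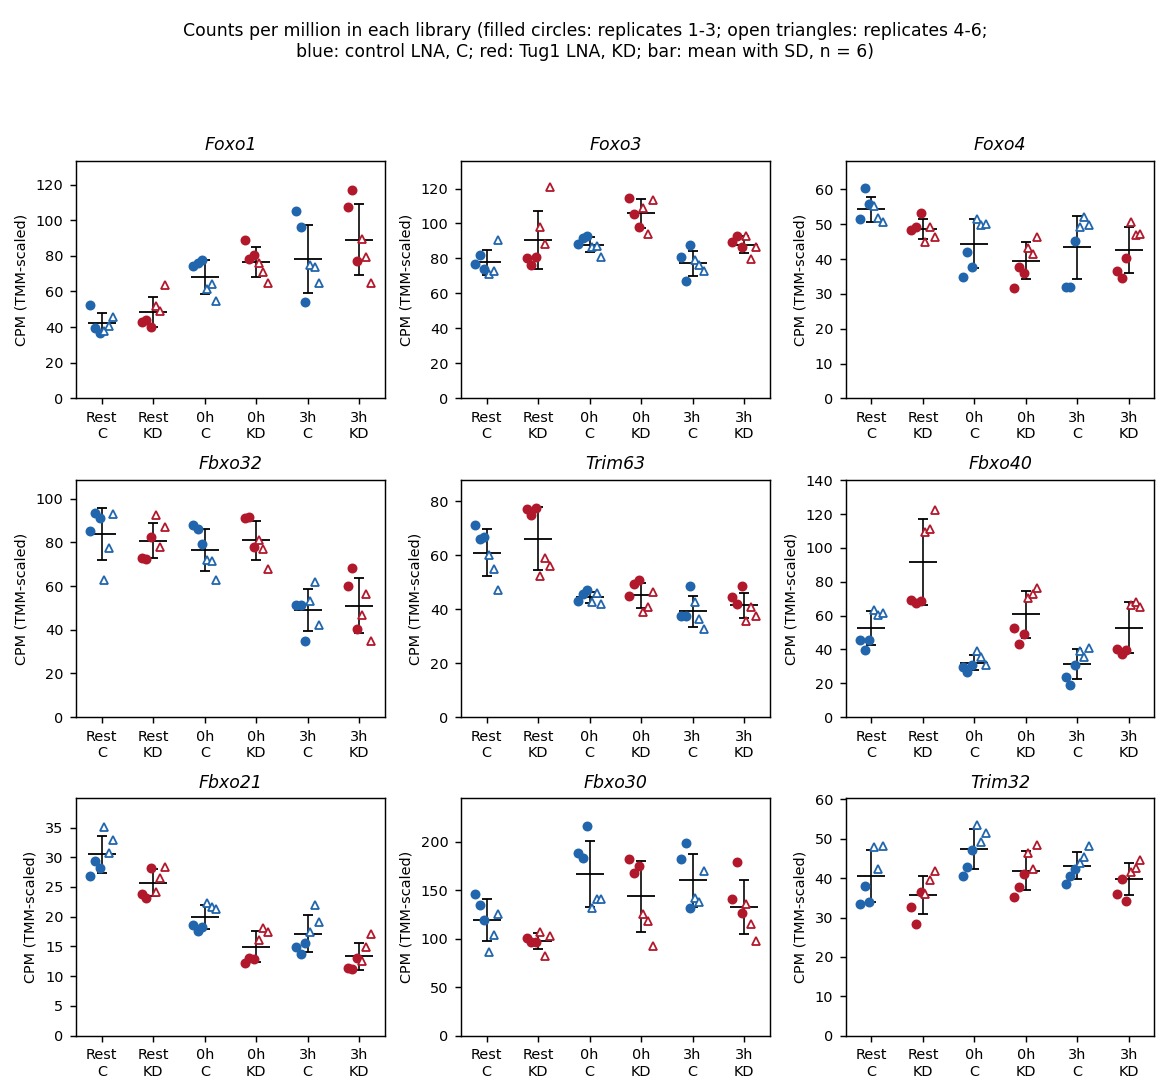
TMM-scaled CPM (y axis from 0) of the 9 genes in each of the 36 libraries, by group on the x axis (Rest, EPS 0h, EPS 3h; C, control; KD, *Tug1* KD), with filled circles for replicates 1 to 3, open triangles for replicates 4 to 6, and the mean with SD (n = 6). *Foxo1* was higher and *Fbxo21* lower in every stimulated library than in any Rest library of the same LNA, *Fbxo32* was lower at EPS 3h, and *Fbxo40* was higher after *Tug1* KD, with higher means in the second replicate set.

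The first question was how these genes differed between stimulated and Rest myotubes. In control myotubes the ligase genes *Trim63*, *Fbxo40* and *Fbxo21* fell by 27.2% to 38.9% by EPS 0h. *Fbxo32* was lower by the test at EPS 3h alone, and *Foxo1* and *Fbxo30* rose at both times. At EPS 0h 5 of the 9 members passed an FDR of 0.05 (2 higher, 3 lower), beside 38.9% of all genes tested (20.5% higher, 18.4% lower), and 4 of the 9 had groups that did not overlap, beside 22.0%. At EPS 3h 7 of the 9 passed (2 higher, 5 lower), beside 52.0% (26.1% higher, 25.9% lower), and 3 did not overlap, beside 28.9%. With *Tug1* KD 7 of 9 passed at EPS 0h (3 higher, 4 lower), beside 45.6% of all genes (24.4% higher, 21.2% lower). At EPS 3h 6 of 9 passed there (2 higher, 4 lower), beside 52.1% (26.2% higher, 25.9% lower). The groups of 3 members did not overlap at EPS 0h and those of 4 at EPS 3h, beside 22.5% and 29.8% of all genes. With so many genes called in each of these comparisons, the counts alone do not set the members apart, and the values of each gene follow.

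*Foxo1*, a FOXO factor that also controls fuel use and differentiation in muscle, rose with stimulation. In control myotubes its lowest, median and highest levels were 36.4, 40.0 and 52.5 CPM at Rest, 54.7, 69.4 and 77.9 CPM at EPS 0h, and 54.1, 74.1 and 105 CPM at EPS 3h. Every stimulated library lay above every Rest library. The log2FC was 0.70 ± 0.14 (SE) at EPS 0h (FDR = 0.000192) and 0.89 ± 0.14 at EPS 3h (FDR = 2.65e-06), a 1.62-fold and a 1.86-fold rise. With *Tug1* KD the levels were 40.2, 46.3 and 63.4 CPM at Rest, 64.7, 77.1 and 89.0 CPM at EPS 0h, and 64.9, 84.2 and 117 CPM at EPS 3h. There too Rest and stimulated libraries did not overlap, with a log2FC of 0.66 at EPS 0h (FDR = 0.0003) and 0.88 at EPS 3h (FDR = 3.31e-06). The rise at EPS 3h was larger in the first replicate set (1.01 in control and 1.27 in *Tug1* KD) than in the second (0.78 and 0.51), and it passed in each set. The step from EPS 0h to EPS 3h did not pass in either LNA (log2FC 0.20 with FDR = 0.421 in control, 0.22 with FDR = 0.346 in *Tug1* KD).

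*Foxo3*, the FOXO factor best known as an inducer of atrogin-1 and of autophagy genes, moved little. Its lowest, median and highest levels in control myotubes were 71.2, 75.5 and 90.3 CPM at Rest, 81.1, 87.6 and 93.0 CPM at EPS 0h, and 67.3, 77.5 and 87.6 CPM at EPS 3h. The groups overlapped, and neither EPS 0h (log2FC 0.18, FDR = 0.107) nor EPS 3h (-0.01, 95% CI -0.18 to 0.16, FDR = 0.932) differed from Rest by the test. After *Tug1* KD they were 76.2, 84.8 and 121 CPM at Rest, 94.3, 107 and 115 CPM at EPS 0h, and 79.6, 88.2 and 92.8 CPM at EPS 3h. *Foxo3* rose there at EPS 0h (0.22 ± 0.09, FDR = 0.0354) and was lower again at EPS 3h than at EPS 0h (-0.27 ± 0.09, FDR = 0.0302), the latter without overlap. Both calls were weak. The rise rested on the first replicate set (0.43, against 0.05 in the second) and held in 1 of 6 fits that left out a replicate number, all but the fit without replicate 6 losing it, and the later difference held in 2 of 6, lost without replicate 1, 3, 4 or 5.

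*Foxo4*, the third FOXO gene, leant the other way. In control myotubes its levels were 50.7, 53.5 and 60.5 CPM at Rest, 35.0, 46.1 and 51.4 CPM at EPS 0h, and 32.1, 47.2 and 52.2 CPM at EPS 3h. The log2FC was -0.29 ± 0.12 at EPS 0h (FDR = 0.0507, not called) and -0.32 ± 0.12 at EPS 3h (FDR = 0.0223). The ranges overlapped because the second replicate set stayed near the Rest level, with a log2FC of -0.06 at both times, against -0.55 and -0.60 in the first. In *Tug1* KD myotubes the levels were 44.8, 48.9 and 53.2 CPM at Rest, 31.8, 39.6 and 46.5 CPM at EPS 0h, and 34.4, 43.6 and 50.7 CPM at EPS 3h, and only EPS 0h passed (-0.30, FDR = 0.0392; EPS 3h -0.19, FDR = 0.192). EPS 0h also passed in control myotubes with the replicate number (FDR = 0.00849) or the replicate set (FDR = 0.00892) as a block. The call at EPS 3h in control myotubes was lost without replicate 1 or 2 (-0.21 without replicate 2), and that at EPS 0h in *Tug1* KD myotubes without replicate 1, 2, 3 or 5.

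*Fbxo32*, the F-box protein that targets MyoD and the translation factor eIF3f, was lower at EPS 3h but not called at EPS 0h. Its levels in control myotubes were 62.9, 88.3 and 93.4 CPM at Rest, 63.0, 75.8 and 88.2 CPM at EPS 0h, and 34.7, 51.4 and 62.1 CPM at EPS 3h. Rest and EPS 0h covered the same range (log2FC -0.13, 95% CI -0.39 to 0.13, FDR = 0.463), while every EPS 3h library lay below all of them. The log2FC at EPS 3h was -0.77 ± 0.13 against Rest (FDR = 9.57e-06), so that it fell by 41.4%, and -0.64 ± 0.13 against EPS 0h (FDR = 0.000649). *Fbxo32* was the single member called in control myotubes when the times were set against each other, beside 16.6% of all genes (9.67% higher, 6.88% lower), and the single one of the 9 without overlap, beside 7.29%. The levels with *Tug1* KD were 72.3, 80.2 and 92.4 CPM at Rest, 68.0, 79.4 and 91.5 CPM at EPS 0h, and 34.9, 51.6 and 68.1 CPM at EPS 3h. The change was 0.00 at EPS 0h (95% CI -0.26 to 0.26) and -0.66 ± 0.13 at EPS 3h (FDR = 8.44e-05), again without overlap with Rest. Between EPS 3h and EPS 0h it was -0.66 ± 0.13 in *Tug1* KD myotubes (FDR = 0.000413), with the highest EPS 3h library just above the lowest at EPS 0h. There *Fbxo32* and *Foxo3* were the 2 members called, both lower, beside 15.7% of all genes (8.59% higher, 7.13% lower), and *Foxo3* the 1 without overlap, beside 6.87%. The EPS 3h library that stood apart in control myotubes, replicate 3, held the lowest *Fbxo32* level, and without both replicate 3 libraries of EPS 3h the fall against Rest still passed in control (FDR = 2.64e-05) and *Tug1* KD myotubes (FDR = 0.000112). Against Rest the log2FC at EPS 3h in the first and second replicate sets was -0.95 and -0.57 in control myotubes. In *Tug1* KD myotubes the second set fell more (-0.41 and -0.90), and each of these passed. The step from EPS 0h to EPS 3h in control myotubes was -0.86 in the first replicate set (FDR = 0.00183) and -0.39 in the second, where it did not pass (FDR = 0.122). *Gm15943*, a gene on the opposite strand that shares exon sequence with *Fbxo32*, held 1041 counts over the 36 libraries against 50869 for *Fbxo32*, and the strand setting of the counting is not given in the sources used here.

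*Trim63*, whose protein ubiquitinates sarcomeric proteins such as myosin heavy chain, was called lower at both times. *Fbxo32* was not called at EPS 0h, but the responses of these genes were not tested against each other. Its levels in control myotubes were 47.2, 63.0 and 71.1 CPM at Rest, 41.8, 44.2 and 47.1 CPM at EPS 0h, and 32.5, 37.5 and 48.5 CPM at EPS 3h. All EPS 0h libraries lay below the lowest Rest library by a narrow margin, and at EPS 3h 1 stimulated library, replicate 3, reached into the Rest range. The log2FC was -0.46 ± 0.11 at EPS 0h (FDR = 0.000863) and -0.64 ± 0.11 at EPS 3h (FDR = 6.19e-06), so that it fell by 27.2% by EPS 0h and fell by 35.7% by EPS 3h. The *Tug1* KD levels were 52.4, 66.9 and 77.4 CPM at Rest, 38.8, 45.7 and 50.6 CPM at EPS 0h, and 35.5, 41.3 and 48.4 CPM at EPS 3h. Neither stimulated group overlapped with Rest, with a log2FC of -0.55 (FDR = 7.92e-05) and -0.67 (FDR = 2.46e-06). In both LNAs and at both times the fall passed in each set of replicates and under every alternative tried. The *Trim63* window printed above carries the adjoining glucocorticoid receptor arm and forkhead core.

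*Fbxo40*, a muscle-specific F-box gene whose protein targets the insulin receptor substrate IRS1, fell at both times. In control myotubes its levels were 39.4, 52.9 and 63.1 CPM at Rest, 26.7, 30.9 and 38.9 CPM at EPS 0h, and 19.0, 33.1 and 41.0 CPM at EPS 3h. Rest and EPS 0h libraries did not overlap, though only by a small gap, and Rest and EPS 3h libraries did. The log2FC was -0.71 ± 0.19 at EPS 0h (FDR = 0.00369) and -0.74 ± 0.20 at EPS 3h (FDR = 0.00165). In *Tug1* KD myotubes the levels were 67.7, 89.5 and 122 CPM at Rest, 43.2, 61.6 and 76.1 CPM at EPS 0h, and 37.3, 52.8 and 68.1 CPM at EPS 3h. The ranges touched there, because the second replicate set was higher than the first in each group (means of 114 against 68.6 CPM at Rest), and the log2FC was -0.59 at EPS 0h (FDR = 0.0119) and -0.79 at EPS 3h (FDR = 0.000784). Within either set of replicates each of these 4 changes passed.

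*Fbxo21*, an F-box gene induced by FOXO in atrophying muscle, had the lowest log2FC of the 9 at EPS 3h, which was not tested against those of the other members. Its levels in control myotubes were 26.8, 30.0 and 35.1 CPM at Rest, 17.7, 19.99 and 22.4 CPM at EPS 0h, and 13.7, 16.5 and 22.0 CPM at EPS 3h. No stimulated library reached the Rest range. The log2FC was -0.61 ± 0.12 at EPS 0h (FDR = 7.11e-05) and -0.83 ± 0.12 at EPS 3h (FDR = 2.24e-07), so that it fell by 34.4% by EPS 0h and fell by 43.8% by EPS 3h. In *Tug1* KD myotubes the levels were 23.2, 25.3 and 28.3 CPM at Rest, 12.2, 14.6 and 18.1 CPM at EPS 0h, and 11.2, 12.8 and 17.1 CPM at EPS 3h. These groups did not overlap with Rest either, and the log2FC was -0.78 (FDR = 1.48e-06) and -0.94 (FDR = 2.14e-08).

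*Fbxo30* (MUSA1), an F-box gene that bone morphogenetic protein signalling holds down in muscle, rose while the other called ligases fell. In control myotubes its levels were 86.7, 122 and 147 CPM at Rest, 132, 162 and 216 CPM at EPS 0h, and 132, 156 and 199 CPM at EPS 3h. Every stimulated library was above the Rest mean, but the ranges overlapped. The log2FC was 0.48 ± 0.15 at EPS 0h (FDR = 0.0127) and 0.43 ± 0.15 at EPS 3h (FDR = 0.0203). In *Tug1* KD myotubes the levels were 82.4, 98.7 and 107 CPM at Rest, 92.1, 147 and 183 CPM at EPS 0h, and 97.2, 131 and 179 CPM at EPS 3h, with a log2FC of 0.56 (FDR = 0.00366) and 0.44 (FDR = 0.0165). Of the stimulated *Tug1* KD libraries 5 of 6 lay above the Rest mean at each time. The rise in *Tug1* KD myotubes was 0.85 and 0.63 within the first replicate set and 0.20 and 0.25 within the second, where it did not pass (FDR = 0.339 and 0.179). Scaling by library size alone, which moved the median of all genes at EPS 3h by -0.17 on the log2 scale in both LNAs, left *Fbxo30* at 0.25 in control and 0.28 in *Tug1* KD myotubes, not called. The call at EPS 0h in control myotubes was lost without replicate 3, that at EPS 3h without replicate 2 or 4, and that at EPS 3h in *Tug1* KD myotubes without replicate 2. The opposite-strand gene *4930432B10Rik* shares exon sequence with *Fbxo30* and held 660 counts in all against 96703.

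*Trim32*, whose protein targets desmin and actin, did not pass in any EPS comparison. Its levels in control myotubes were 33.4, 40.2 and 48.3 CPM at Rest, 40.5, 48.1 and 53.5 CPM at EPS 0h, and 38.6, 43.2 and 48.2 CPM at EPS 3h. Those of *Tug1* KD libraries were 28.4, 36.2 and 41.8 CPM at Rest, 35.3, 41.7 and 48.4 CPM at EPS 0h, and 34.2, 40.7 and 44.5 CPM at EPS 3h. The ranges overlapped throughout. The log2FC at EPS 0h was 0.22 ± 0.10 in control (FDR = 0.0803) and 0.23 ± 0.10 in *Tug1* KD myotubes (FDR = 0.0668). These passed with the replicate number as a block (FDR = 0.0032 and 0.00326) and with the replicate set as a block (FDR = 0.00431 and 0.0042). At EPS 3h the change was 0.09 (95% CI -0.11 to 0.29) in control and 0.15 (95% CI -0.05 to 0.36) in *Tug1* KD myotubes.

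**Figure D2:**
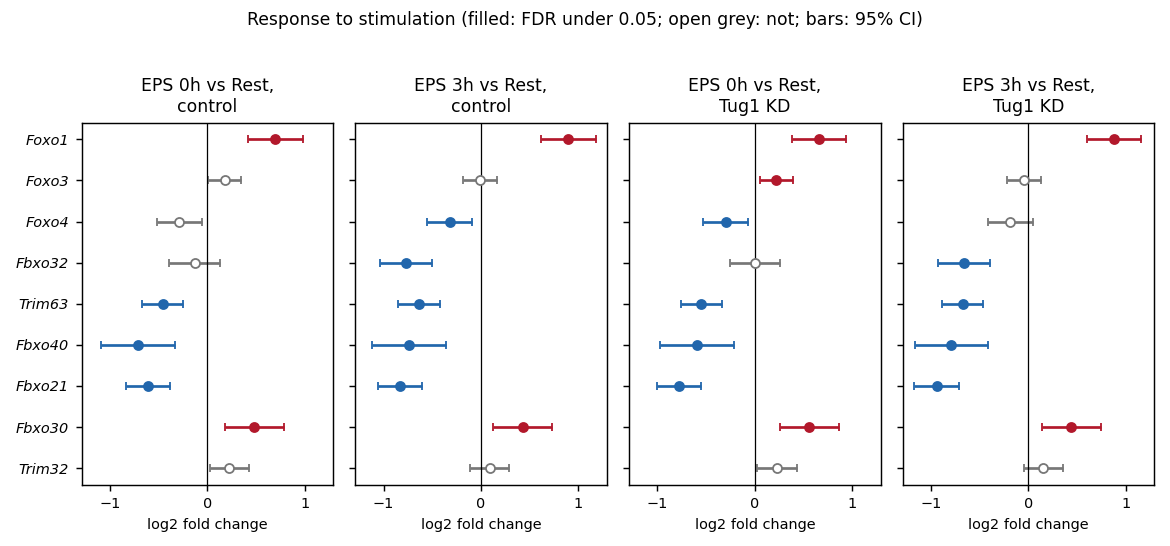
Log2 fold change (x axis) of the 9 genes (y axis) for EPS 0h and EPS 3h against Rest, in control and in *Tug1* KD myotubes, with 95% confidence intervals from the fit to all 36 libraries (filled points: FDR under 0.05). *Foxo1* and *Fbxo30* lie to the right of 0 in each panel and *Trim63*, *Fbxo40* and *Fbxo21* to the left, while *Fbxo32* moves from -0.13 at EPS 0h to -0.77 at EPS 3h in control myotubes.

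**Figure D3:**
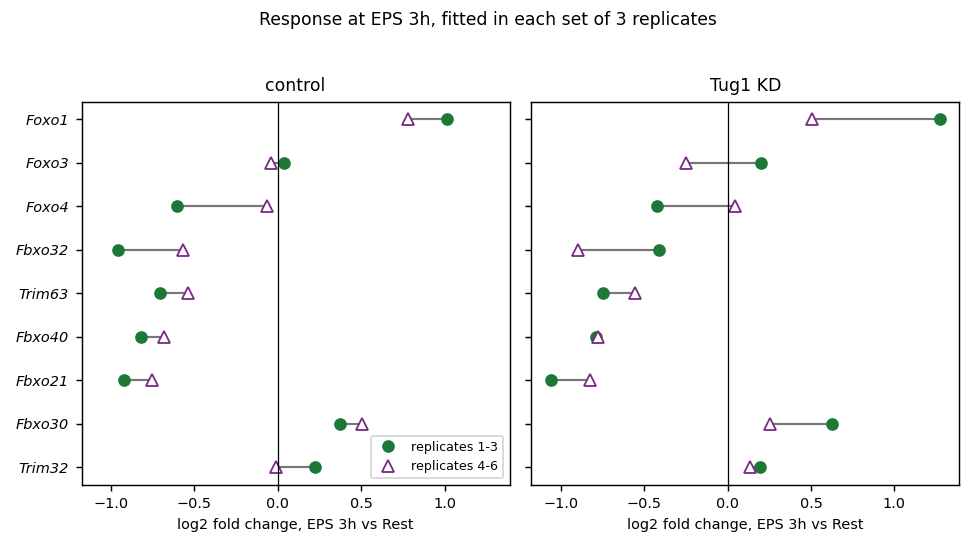
Log2 fold change at EPS 3h against Rest (x axis) of the 9 genes (y axis), fitted in replicates 1 to 3 (filled circles) and in replicates 4 to 6 (open triangles) alone, in control and *Tug1* KD myotubes. *Fbxo40*, *Trim63* and *Fbxo21* lie close together in both sets, whereas *Foxo4* in control myotubes was -0.60 in one set and -0.06 in the other and *Foxo1* in *Tug1* KD myotubes 1.27 and 0.51.

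The second question was which genes differed between *Tug1* KD and control myotubes. The knockdown was partial and used 1 LNA sequence, so less *Tug1* and other effects of that LNA cannot be told apart here. *Fbxo40* was called at Rest and at both times after stimulation, with 1.74 times its control level at Rest, 1.89 times at EPS 0h and 1.68 times at EPS 3h, and *Fbxo21* was lower after stimulation, while at Rest it passed with a block alone. At Rest 1 of the 9 members passed an FDR of 0.05, upward and without overlap, beside 10.0% of all genes passing (5.54% higher, 4.47% lower) and 8.07% not overlapping. At EPS 0h 3 of 9 passed (2 higher, 1 lower), beside 14.3% of all genes (8.25% higher, 6.07% lower), and 2 did not overlap (7.94%). At EPS 3h 2 of 9 passed (1 higher, 1 lower), beside 11.5% (6.38% higher, 5.11% lower), and none of the 9 was free of overlap (4.62% of all genes were).

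For *Fbxo40* every *Tug1* KD library at Rest, at 67.7 CPM or more, lay above the highest control library at 63.1 CPM. The log2FC was 0.80 ± 0.19 at Rest (FDR = 0.00438), 0.92 ± 0.19 at EPS 0h (FDR = 0.000899) and 0.75 ± 0.20 at EPS 3h (FDR = 0.00833). At EPS 0h the groups did not overlap (at most 38.9 CPM in control, at least 43.2 CPM in *Tug1* KD), and at EPS 3h the highest control library reached 41.0 CPM against a lowest *Tug1* KD level of 37.3 CPM. The difference was present within both sets of replicates, from 0.65 at Rest in the first to 1.06 at EPS 0h in the second, and all 6 of these fits passed. Without the 2 EPS 3h libraries that stood apart it still passed at EPS 3h (FDR = 0.0107). It was called under all alternatives at Rest and EPS 0h and under 17 of 18 at EPS 3h, the exception being the fit with no filter on low counts (FDR = 0.0744). The stimulated *Tug1* KD libraries, at medians of 61.6 and 52.8 CPM, compare with a median of 52.9 CPM in Rest control, a difference that was not tested.

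The *Fbxo21* level was below that of control myotubes after *Tug1* KD at EPS 0h (-0.42 ± 0.12, FDR = 0.0119) and at EPS 3h (-0.36 ± 0.12, FDR = 0.041), where all 6 *Tug1* KD libraries lay below the control mean but the ranges overlapped. At Rest the value was -0.25 ± 0.12 (FDR = 0.196), with all 6 libraries below the control mean as well. The Rest value was -0.17 (FDR = 0.388) in the first replicate set and -0.32 (FDR = 0.0581) in the second, and with the set as a block it passed (FDR = 0.0288). The EPS 3h call was lost without the 2 libraries that stood apart (-0.37, FDR = 0.067) and in 5 of 6 fits that left out a replicate number, all but the one without replicate 6, while with the replicate number as a block it stood at FDR = 0.0014. The EPS 0h call was lost without replicate 4 alone.

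*Foxo3* was higher in *Tug1* KD myotubes at EPS 0h (0.27 ± 0.09, FDR = 0.0324), with the lowest *Tug1* KD library at 94.3 CPM and the highest control library at 93.0 CPM. This call held in 1 of 6 fits that left out a replicate number, the one without replicate 3, and was lost when counts were scaled by library size alone (FDR = 0.0607). The values at Rest (0.22, FDR = 0.109) and EPS 3h (0.19, FDR = 0.18) did not pass. At Rest the first replicate set gave 0.03 and the second 0.39, and for *Foxo1* they gave -0.02 and 0.41, so that in the second set alone both genes passed (FDR = 0.0259 and 0.0301). *Trim32*, at -0.18 in *Tug1* KD myotubes at EPS 0h (FDR = 0.268), passed with the replicate number (FDR = 0.0344) or the replicate set (FDR = 0.0447) as a block and under no other alternative tried.

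The 2 classical atrophy genes did not differ between the LNAs by the test. For *Fbxo32* the log2FC was -0.05 at Rest (95% CI -0.31 to 0.21), 0.08 at EPS 0h (-0.18 to 0.34) and 0.06 at EPS 3h (-0.21 to 0.32). For *Trim63* it was 0.12 (-0.09 to 0.33), 0.02 (-0.19 to 0.24) and 0.08 (-0.13 to 0.29). These intervals treat the 6 wells of a group as independent, so they do not bound what 2 experiments could have missed. For *Fbxo32* the first and second replicate sets gave -0.25 and 0.14 at Rest and 0.29 and -0.19 at EPS 3h, none of them called. *Fbxo30* was at -0.29 (FDR = 0.281), -0.22 (FDR = 0.401) and -0.28 (FDR = 0.287), and *Foxo4* at -0.16, -0.17 and -0.03, with FDR = 0.39 or more.

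**Figure D4:**
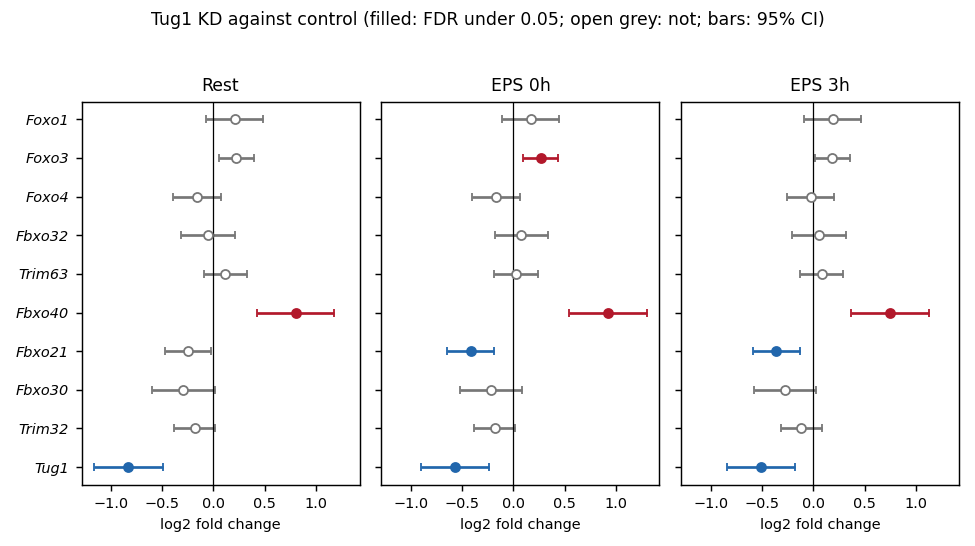
Log2 fold change (x axis) of the 9 genes and of *Tug1* (y axis) in *Tug1* KD against control myotubes at Rest, EPS 0h and EPS 3h, with 95% confidence intervals (filled points: FDR under 0.05). *Fbxo40* lies at 0.80, 0.92 and 0.75, *Tug1* at -0.83, -0.57 and -0.51, and the intervals of *Fbxo32* and *Trim63* span 0 in each panel.

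Whether the response to stimulation depended on *Tug1* was tested as the difference of the EPS effects between *Tug1* KD and control myotubes. No member passed at either time, and 0 of the 9 had an unadjusted p under 0.05. Over all genes edgeR called 0 at EPS 0h (0%; 324 at an unadjusted p under 0.05) and 1 at EPS 3h (0.00715%; 430 at an unadjusted p under 0.05). The differences of the members lay between -0.17 (*Fbxo21*) and 0.13 (*Fbxo32*) at EPS 0h. At EPS 3h they lay between -0.11 (*Fbxo21*) and 0.14 (*Foxo4*). For *Foxo1* the difference at EPS 3h was -0.02 (95% CI -0.41 to 0.38), for *Fbxo32* 0.11 (-0.26 to 0.48) and for *Trim63* -0.04 (-0.33 to 0.26). For *Fbxo40* it was 0.12 at EPS 0h (-0.41 to 0.65) and -0.05 at EPS 3h. The intervals are wide enough to hold differences of the size of the smaller EPS effects. At EPS 3h the replicate sets differed in sign for *Fbxo32* (0.54 in the first, -0.33 in the second) and *Foxo1* (0.26 and -0.28), none of them called. For *Trim63* they gave -0.04 and -0.02.

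The genes that feed into FOXO activity were described with fixed lists, whose counts are given beside the medians of the list and of all genes (between -0.03 and -0.02 for control myotubes at either time against Rest). Over 8 lists, with each gene counted once, 59 of 146 genes tested (40.4%) passed at EPS 0h and 75 (51.4%) at EPS 3h, close to the 38.9% and 52.0% of all genes, so the number called does not set these lists apart. Of 21 genes tested for IGF and PI3K-AKT input, 12 rose and 0 fell at EPS 0h, and 12 rose and 1 fell at EPS 3h, with list medians of 0.43 and 0.50. *Irs2* rose by 1.26 at EPS 0h and 1.60 at EPS 3h on the log2 scale (29.3 CPM at Rest to 70.1 and 88.6 CPM), and *Irs1*, which is also listed as a substrate of the *Fbxo40* ligase, rose by 1.23 at EPS 0h (50.9 to 119 CPM) and by 1.25 at EPS 3h. *Rictor*, a subunit of the mTOR complex that phosphorylates AKT, rose by 1.31 at EPS 3h. The gene that fell was *Akt2* (-0.21, FDR = 0.0291). Of 16 other regulators of FOXO, 7 rose and 2 fell at EPS 0h and 9 rose and 1 fell at EPS 3h (medians 0.31 and 0.28). *Sirt1*, a deacetylase of FOXO proteins, rose by 1.00 and 1.24, and the acetyltransferase gene *Crebbp* by 0.80 and 0.88. *Prmt1* (-0.27) and *Mapk9* (-0.23) fell at EPS 0h and *Cdk2* (-0.32) at EPS 3h.

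Genes known as FOXO targets changed in both directions. Of 25 tested, 6 rose and 7 fell at EPS 0h (median -0.01), and 5 rose and 7 fell at EPS 3h (median -0.04). *Klf15*, which is also a target of the glucocorticoid receptor, rose by 1.52 at EPS 0h (4.8 to 13.8 CPM), and *Irs2* and *Rictor* are in this list too. *Pdk4*, which restrains glucose oxidation, fell by 0.70 at EPS 0h and by 0.87 at EPS 3h, *Trim54* fell by 0.81 at EPS 0h, and the stress gene *Gadd45a* fell by 1.09 at EPS 3h. In the list of other regulators of the atrophy ligases, 5 of 18 rose and 3 fell at EPS 0h and 4 rose and 8 fell at EPS 3h (medians -0.02 and -0.14). *Nr3c1*, the glucocorticoid receptor gene, rose by 0.83 and 0.88 (73.6 CPM at Rest to 131 and 136 CPM), and *Nfkb1* rose by 0.51 at EPS 3h. *Junb*, a factor that opposes FOXO3 at atrophy genes, fell by 1.65 and by 2.03 (527 CPM to 168 and 129 CPM), *Fkbp5* fell by 0.38 at EPS 0h and *Cebpb* by 0.66 at EPS 3h.

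Among 27 other ubiquitin ligases of muscle, 8 rose and 3 fell at EPS 0h and 10 rose and 5 fell at EPS 3h (medians 0.13 and 0.16). *Traf6*, a ligase of inflammatory signalling, rose by 1.32 and 1.52 (49.9 CPM to 125 and 143 CPM), *Cblb* by 0.70 at EPS 0h and *Nedd4l* by 0.84 at EPS 3h. *Trim54* (MuRF3), a relative of *Trim63*, fell by 0.81 and 0.71, and *Trim72* fell by 0.59 and 0.43. Of 17 ubiquitin genes and E1 and E2 enzymes, 8 rose and 1 fell at EPS 0h and 11 rose and 1 fell at EPS 3h (medians 0.26 and 0.40). The E1 gene *Uba6* rose by 0.74 and 0.73, and *Ube2o* fell by 0.53 and 0.56. The SCF core and neddylation list joins the SCF core, with which the F-box members assemble, to genes of its regulation and of the NEDD8 pathway. Of its 15 genes 2 were higher and 0 lower at EPS 0h, and 2 were higher and 1 lower at EPS 3h (medians 0.02 and 0.07). Of all genes 20.5% and 26.1% were higher and 18.4% and 25.9% lower. The genes called in the list were *Ube2f* (0.86 and 1.25), an E2 enzyme for NEDD8, *Cand1* (0.41 and 0.65), which exchanges F-box subunits, and *Cand2* (-0.24 at EPS 3h). Of 13 ligase substrates *Irs1* rose at both times and *Myod1*, a target of atrogin-1, fell by 0.50 at EPS 3h, with no other passing.

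With *Tug1* KD the same lists gave, for EPS 0h and EPS 3h against Rest, 13 and 12 of 21 IGF and PI3K-AKT genes higher (2 and 1 lower), 9 and 8 of 16 FOXO regulators higher (2 and 2 lower) and 7 and 7 of 25 FOXO targets higher (10 and 8 lower). Of the other regulators of the atrophy ligases 6 and 5 of 18 were higher (4 and 8 lower), and of the other ligases 12 and 10 of 27 (4 and 4 lower). Of the ubiquitin, E1 and E2 genes 8 and 10 of 17 were higher (1 and 1 lower). Of the SCF core and neddylation genes 2 and 2 of 15 were higher (2 and 3 lower), and of the substrates 1 and 1 of 13 (0 and 2 lower). In all 77 of the 146 genes (52.7%) passed at EPS 0h and 80 (54.8%) at EPS 3h, beside 45.6% and 52.1% of all genes. The list medians lay between -0.02 (FOXO targets) and 0.41 (IGF and PI3K-AKT) at EPS 0h and between -0.12 (other regulators of the atrophy ligases) and 0.35 (IGF and PI3K-AKT) at EPS 3h, and those of all genes were -0.03 and -0.04.

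**Figure D5:**
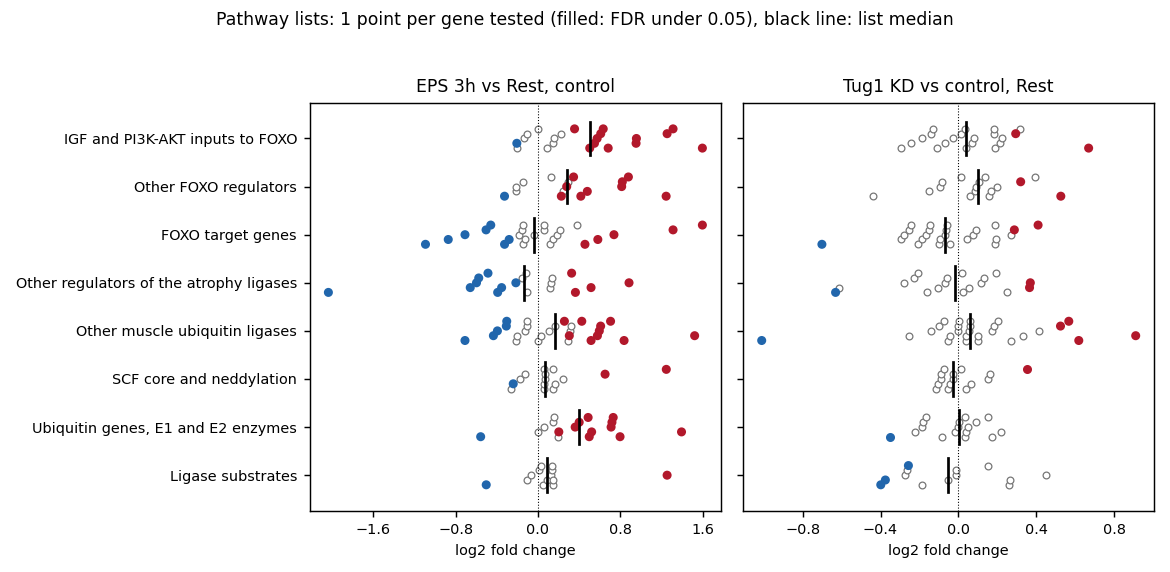
Log2 fold change (x axis) of each gene tested in 8 pathway lists (y axis) for EPS 3h against Rest in control myotubes and for *Tug1* KD against control at Rest (filled points: FDR under 0.05, red higher, blue lower; black lines: list medians). At EPS 3h the medians of the IGF and PI3K-AKT list (0.50) and of the ubiquitin, E1 and E2 list (0.40) lie to the right and that of the FOXO targets at -0.04, and at Rest 20 of the 146 genes pass (13.7%, beside 10.0% of all genes).

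With *Tug1* KD at Rest 20 of the 146 genes of these lists passed (13.7%), 13 higher and 7 lower, beside 10.0% of all genes. The list medians lay between -0.07 (FOXO targets) and 0.10 (other FOXO regulators), and that of all genes was -0.03. Of the other muscle ligases 4 of 27 were higher and 1 lower. *Trim55* (MuRF2), another relative of *Trim63*, was 0.91 higher (83.3 CPM in control, 157 CPM in *Tug1* KD), *Fbxw7* was 0.62 higher and *Fbxl22*, an F-box gene of the sarcomere, was 1.01 lower on the log2 scale (log2FC -1.01, FDR = 6.91e-07). Among the IGF and PI3K-AKT genes 2 of 21 were higher, *Igf1r* (0.67, FDR = 0.00103) and *Mtor* (0.29). Of the FOXO targets *Gadd45a* (0.41) and *Cdkn1a* (0.29) were higher and *Txnip* (-0.70) was lower of 25, and of the FOXO regulators *Stk3* (0.53) and *Mapk9* (0.32) were higher of 16. Of 18 other regulators *Smad3* (0.37) and *Hdac4* (0.36) were higher and *Cebpd* (-0.63) lower. *Ube2f* (0.35) was higher of the 15 SCF core and neddylation genes, and *Ube2o* (-0.35) was lower of the 17 ubiquitin, E1 and E2 genes. Of 13 substrates 3 were lower, *Vim* (-0.40) and *Dtnbp1* (-0.38) among them. The myotube marker *Mef2c* was 1.07 higher in the same comparison (FDR = 0.000796), the 1 of 11 myotube markers that passed, and the part of this shift, and of the lower myoblast and non-muscle marker sums, in the *Fbxo40* difference was not tested.

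With *Tug1* KD after stimulation 22 of the 146 genes passed at EPS 0h (15.1%) and 19 at EPS 3h (13.0%), beside 14.3% and 11.5% of all genes. The list medians lay between -0.10 (FOXO targets) and 0.18 (other muscle ligases) at EPS 0h. At EPS 3h they lay between -0.13 (SCF core and neddylation) and 0.11 (other FOXO regulators). At EPS 0h and EPS 3h, 6 and 4 of the 27 other ligases were higher (1 and 1 lower), 4 and 2 of the 21 IGF and PI3K-AKT genes higher (0 and 1 lower), 3 and 1 of the 16 FOXO regulators higher (0 lower at both) and 2 and 2 of the 25 FOXO targets higher (1 and 2 lower). Of the other regulators of the atrophy ligases 3 and 2 of 18 were higher (1 and 1 lower), and of the SCF core and neddylation genes 1 and 1 of 15. Of the ubiquitin, E1 and E2 genes 0 and 0 of 17 were higher (0 and 1 lower), and of the substrates 0 and 0 of 13 (1 and 1 lower). *Trim55* stood 0.96 and 0.86 higher, *Fbxo9*, an F-box gene, 0.68 and 0.67 higher, and *Igf1r* 0.71 and 0.80 higher. *Sesn1*, a FOXO and p53 target that restrains mTOR complex 1, was 1.03 and 0.96 higher, and *Smad3* was 0.57 and 0.61 higher. Lower were *Fbxl22* (-0.79 and -0.71), the transcription factor gene *Cebpd* (-0.78 and -0.64), *Cited2* (-0.41 and -0.33), the intermediate filament gene *Vim* (-0.38 and -0.44) and, at EPS 3h, the E2 gene *Ube2g1* (-0.53), the kinase gene *Sgk1* (-0.43) and *Ccng2* (-0.35).

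Across the 36 libraries, the 13994 other genes were ranked by the Pearson correlation of their log2 CPM with that of each of 4 members, as a description only, since the points share groups and replicate sets. For *Fbxo32* the closest were *2010315B03Rik* (r = 0.941), *Ctns* (0.929) and *Zkscan8* (0.920), and for *Trim63* they were *Paxx* (0.937), *Fgfbp1* (0.916) and *Gm14137* (0.912). For *Foxo1* they were *Wdr76* (0.958), *Arl5b* (0.957) and *Fndc3a* (0.955), and for *Foxo3* *Hdac4* (0.863), *Tnrc6c* (0.847) and *Trappc10* (0.841). Among the members themselves *Fbxo32* and *Trim63* had r = 0.484 over the 36 libraries and -0.129 once the group means were removed, and *Fbxo32* and *Foxo1* had -0.292 and 0.699.

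In the mouse genome (GRCm39, GENCODE annotation) the members lie on 7 chromosomes. *Foxo1* is at chr3:52175757-52260642 (plus strand), *Foxo3* at chr10:42057837-42154007 (minus) and *Foxo4* at chrX:100298073-100304479 (plus). *Fbxo32* is at chr15:58039275-58078741 (minus), *Fbxo40* at chr16:36783822-36810902 (minus), *Fbxo21* at chr5:118114795-118148269 (plus) and *Fbxo30* at chr10:11156770-11173806 (plus). *Trim63* is at chr4:134042393-134056948 (plus) and *Trim32* at chr4:65523201-65537781 (plus).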

How the data were processed

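C2C12 myotubes gave 36 RNA-seq libraries, 6 in each of 6 groups. The deposited values are the authors' counts per gene, whole numbers without normalization. Per the labels and the submitters' processing notes the authors used FastQC 0.11.7, fastp 0.14.1 and STAR 2.5 with GRCm39, while the strand setting and mode of counting were not given in the sources used here. Libraries carried a spike-in that is not used here. The 36 per-sample count files held the same values as the deposited count table. Groups and replicate numbers came from the titles, no library was left out, and every pair of libraries in a group differed by more than counting error (the lowest chi-square divided by its degrees of freedom was 4.258). Of the 55416 genes 1492 have no name and hold 0.0327% of counts.

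The filter kept the 13995 genes that reached 1 RPM in 12 or more libraries. Counts were normalized by TMM and tested in R 4.3.3 with edgeR 4.0.16 (quasi-likelihood, robust, 1 fit to all 6 groups), with Benjamini-Hochberg adjustment over all genes tested and an FDR under 0.05 as the threshold, the SE being the log2FC over the square root of F. The test was first run on simulated counts with known changes. CPM were TMM-scaled, and RPKM divide them by the GENCODE exon length. Alternatives were DESeq2 1.42.0, limma-voom (limma 3.58.1), library size or upper quartile scaling, no filter, a filter of 10 counts in 6 libraries, an FDR under 0.01, a block for the replicate number or set, the compared groups alone, either replicate set alone, and leaving out each replicate number. The fit without the replicate 3 libraries of EPS 3h was added after seeing the data. The total count per library limits counting error only.

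Same-numbered libraries, which also share a replicate set, were checked for group-centred values that correlated above 0.1 in every pair. This held for *Tug1* KD against control at EPS 0h (lowest r 0.626), the same at EPS 3h (0.217), control myotubes at EPS 0h (0.228) and at EPS 3h (0.127) against Rest, and EPS 0h against Rest (0.165) and EPS 3h against EPS 0h (0.174) in *Tug1* KD myotubes. It did not hold for *Tug1* KD at Rest (-0.0962), EPS 3h against EPS 0h in control (-0.0817) or EPS 3h against Rest in *Tug1* KD myotubes (0.0724). Such a correlation cannot tell a pairing by number from the shared set, and pairs within a set were not compared.

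The members, the gene lists, the tests and the alternatives were chosen with earlier results of these data known. From each list the text names up to 2 genes that rose most and up to 2 that fell most, among genes past the threshold with a mean of at least 5 CPM in the higher group; 1 gene this rule names is not reported here. The 3 most alike genes are named for *Fbxo32*, *Trim63*, *Foxo1* and *Foxo3*.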

Additional observations from a re-analysis of the deposited data

How the results depend on the processing

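Over 1737 recomputed changes of single members, 1646 kept their side of the threshold (84 of them, called in neither fit, changed sign), 60 were no longer called, 31 became called and 0 called values changed sign. The number of members called moved by over 1.5 times in these cases. With the replicate number as a block, 2 members passed for *Tug1* KD at Rest in place of 1 (*Fbxo21*, FDR = 0.0218, was added) and 2 for EPS 3h against EPS 0h in control myotubes in place of 1, again through *Fbxo21* (FDR = 0.0262). Same-numbered libraries did not all correlate above 0.1 in these comparisons. The block for the replicate set gave 2 and 2 as well, beside 15.9% and 23.5% of all genes. In EPS 3h against Rest in *Tug1* KD myotubes, where they did not either, the block for the replicate number added *Trim32* (FDR = 0.0345). No call was lost with the replicate block. Over all genes that block called 17.2%, 25.2% and 61.4% in these comparisons, in the order given, where the main fit called 10.0%, 16.6% and 52.1%. Under an FDR of 0.01 the counts were 1 for *Tug1* KD at EPS 0h, 1 for *Tug1* KD at EPS 3h, 4 for EPS 0h and 1 for EPS 3h against EPS 0h in *Tug1* KD myotubes, beside 8.18%, 5.98%, 32.3% and 9.42% of all genes. With no filter on low counts they were 1 for *Tug1* KD at EPS 0h and 0 at EPS 3h, beside 3.26% and 2.33%. For *Tug1* KD at EPS 3h the count was 1 with 10 counts in 6 libraries, with the compared groups alone, in replicates 1 to 3 alone and without the replicate 3 libraries of EPS 3h. The shares of all genes there were 8.79%, 5.94%, 6.09% and 10.3%, in that order. Library size scaling called 3 members for EPS 3h against EPS 0h in control myotubes, beside 20% of all genes, whose median it moved by -0.09. Replicates 4 to 6 alone called 3 for *Tug1* KD at Rest, 0 for EPS 3h against EPS 0h in control, and 4 for EPS 0h against Rest in *Tug1* KD myotubes. Beside these counts stood 16.1%, 12.8% and 28.4% of all genes. Either set alone called 1 for EPS 3h against EPS 0h in *Tug1* KD myotubes, beside 9.22% of all genes in the first set and 12.8% in the second. Leaving out each replicate number gave 1 to 1 member for *Tug1* KD at Rest, 1 to 3 at EPS 0h and 1 to 2 at EPS 3h, 4 to 6 and 5 to 7 for EPS 0h and EPS 3h against Rest in control myotubes, 5 to 7 and 5 to 6 in *Tug1* KD myotubes, 1 to 1 and 1 to 2 for EPS 3h against EPS 0h in control and *Tug1* KD myotubes, and 0 to 0 for both differences of the EPS response. Of all genes these fits called 6.82% to 8.41%, 9.17% to 11.9% and 7.07% to 10% for *Tug1* KD at Rest, EPS 0h and EPS 3h. Against Rest they called 32.1% to 38.7% and 46.1% to 50.9% in control and 36.1% to 48.7% and 44.5% to 52.4% in *Tug1* KD myotubes. For EPS 3h against EPS 0h the shares were 11.5% to 15.6% in control and 10.3% to 14.1% in *Tug1* KD myotubes. For the differences of the EPS response they were at most 0.00715%. The cause of these moves was not tested, and in the fits on fewer libraries the smaller number and the libraries left out cannot be told apart.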
